A study of Mus musculus with 15 samples.

Results

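The genes described here encode the enzymes, membrane proteins and proton pump of the lysosome, together with 2 transcription factors that act on them. They were chosen by function, with earlier results of these data known, as a list of 39 symbols. The list holds 7 cathepsins and related peptidases, 10 other hydrolases and activators and 6 membrane or cholesterol-handling proteins. It also holds the factors Tfeb and Tfe3 and 14 subunits or accessory proteins of the vacuolar ATPase (V-ATPase). A gene entered where a probe set carried that symbol alone in the platform's gene table, with the brightest probe set taken where there were several. This gave 38 of the 39 genes, out of 22180 genes in all. Glb1, the acid beta-galactosidase gene, shares its probe set with Tmppe and was left out. 36 of the 38 passed the filter on dim genes and were tested.

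The samples were 15 arrays of RAW264.7 cells, a transformed mouse macrophage line, in 5 groups of 3. 9 arrays came from cells given 1.0 µg/mL lipopolysaccharide (LPS), a bacterial outer-membrane component, after 30 min with hydroxylated docosahexaenoyl ethanolamides (HDHEAs): 5.0 µM 13-HDHEA, 5.0 µM 16-HDHEA, or 2.5 µM of each together. 3 arrays came from cells given the same LPS after vehicle, and 3 from cells given vehicle and no LPS. Ethanol stood at 0.1% in all groups, harvest came at 24 h, and the 3 arrays of a group stem from 3 numbered experiments.

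Values are log2 expression, so that a difference of 1 is a 2-fold change. The array medians lay between 3.62 and 3.69, and the number of arrays limits the precision. The LPS label was borne out by Il1b, which averaged 12.34 ± 0.0457 in LPS with vehicle and 3.42 ± 0.139 without LPS (SD, n = 3 each), with Nos2 at 9.41 against 3.82 and Tnf at 12.52 against 9.96. All 10 macrophage markers, including Cd68, Csf1r, Ptprc and Itgam, lay above the arrays' 40th percentile in every group. The mean level of the 10 ran from 10.69 to 10.86 over the LPS with vehicle arrays and from 9.99 to 10.18 over those without LPS. A few genes made up this rise, with differences of 4.50 for Adgre1, 1.56 for Fcgr1 and 1.36 for Mertk. Cd68 differed by -0.09 and Ptprc by -0.10. Of the 10, 5 stood higher and 5 lower with LPS, with a median of -0.00 and a lowest difference of -0.24. In limma 4 were called higher and 1 lower (adjusted p under 0.05), where 29.8% of all genes passed. The mean levels of the fibroblast, lymphocyte and neutrophil markers lay between 2.67 and 3.56 over all 15 arrays, and that of the epithelial and endothelial markers between 4.14 and 4.38. Pdgfra (0.96) and Cdh5 (0.42) were higher and Vwf (-0.49) lower with LPS, and their part in the results was not tested.

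Lysosomes break down proteins, lipids, sugars and glycogen with hydrolases that work at acid pH. The V-ATPase keeps them acid: its membrane part V0 carries protons and its cytosolic part V1 burns ATP to drive it. In macrophages the same organelle digests swallowed particles. Many lysosomal genes carry an E-box element, known as CLEAR, that TFEB and its relatives TFE3 and MITF can bind, and mTORC1 holds these factors in the cytosol when nutrients are plentiful.

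The first comparison asked how LPS changed these genes, with vehicle on both sides. The list moved in both directions and by small amounts. Of 36 genes tested, 10 rose and 8 fell in limma at an adjusted p under 0.05, and 18 did not pass, where 29.8% of all 15468 genes passed (13.5% higher, 16.3% lower). The split was 10 and 5 with arrays centred on their median, and 8 and 10 with quantile normalization repeated. Each of the 18 called genes kept its sign in all 3 experiments. This adds no support, because the arrays with and without LPS did not overlap for any of the 18, which fixes the sign. None of the 36 changed by 2-fold or more, and the median difference was -0.02, against 0.00 over all genes. The median size of the difference, regardless of sign, was 0.23 for the list and 0.20 over all genes. The 3 arrays with LPS and the 3 without did not overlap for 25 of the 36, a share of 69.4%, against 41.2% of all genes. The lysosomal genes were also measured more tightly, with a median SE of 0.0833 against 0.126 over all genes, and the part of this in the called share was not tested. Of the 18 genes that did not pass, 17 had a 95% interval between -0.5 and 0.5, the exception being Ctsh (0.01 to 0.64). With only genes above the 60th percentile tested, 44.0% of all genes and 55.6% of the list passed. These are bulk arrays, in which fewer cells expressing a gene and less of its RNA per cell cannot be told apart.

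**Figure D1:**
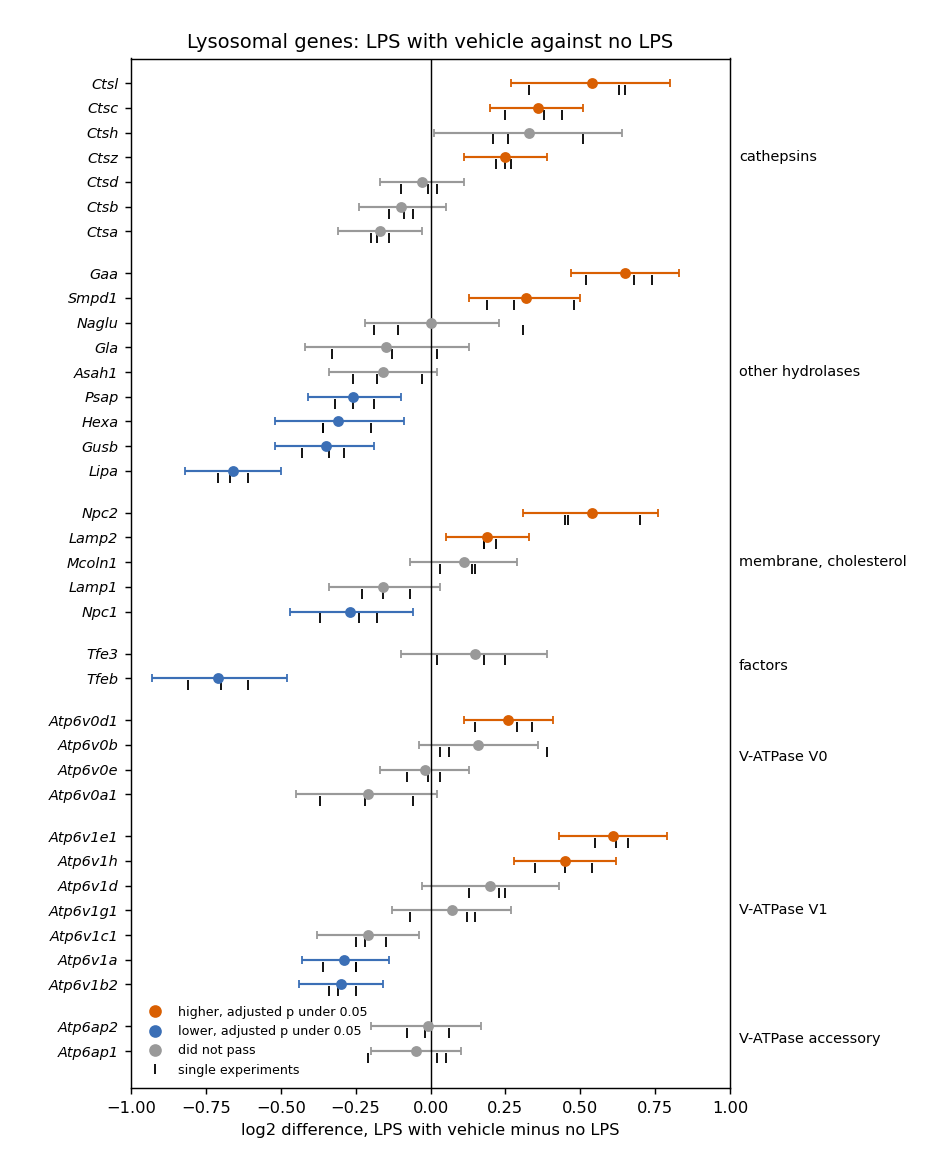
Log2 difference between LPS with vehicle and no LPS for the 36 tested lysosomal genes, grouped by role; points are limma estimates, bars their 95% intervals, and black ticks the 3 experiments. Every group of more than 2 tested genes holds points on both sides of 0, and all estimates lie between -0.71 and 0.65.

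The transcription factor genes differed from one another. Tfeb, a main activator of lysosomal genes, read 3.93, 3.84 and 3.86 in the 3 arrays with LPS and vehicle, and 4.63, 4.45 and 4.67 in those without LPS. Every LPS array lay below every array without LPS, and Tfeb fell by 0.71 on the log2 scale (95% interval -0.93 to -0.48, adjusted p = 0.000118 in limma). This probe set was not bright: it lay near the middle of each array (mean percentile 55.2), though above the 40th percentile in all 15. Its values with LPS lay below the mean level of the epithelial and endothelial markers, which was 4.14 to 4.38 over the arrays. Tfe3, a relative that binds the same element, read 9.50, 9.05 and 9.36 with LPS and 9.26, 9.03 and 9.18 without. Its groups overlapped, and the difference of 0.15 did not pass (95% interval -0.10 to 0.39, adjusted p = 0.392).

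2 further members of this family were measured outside the list. Mitf, the melanocyte and osteoclast factor of the family, read 7.67, 7.51 and 7.65 with LPS and 6.87, 6.94 and 6.82 without, and rose by 0.73 (adjusted p = 0.000251 in limma). Tfec, a relative expressed in macrophages, read 4.44, 4.29 and 4.30 with LPS and 3.11, 3.00 and 2.88 without. It rose at least 2.26-fold, a lower bound because its level without LPS lay below the 40th percentile (adjusted p = 0.00152). Of the 4 family genes, 2 thus rose with LPS, 1 fell and 1 did not pass.

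**Figure D2:**
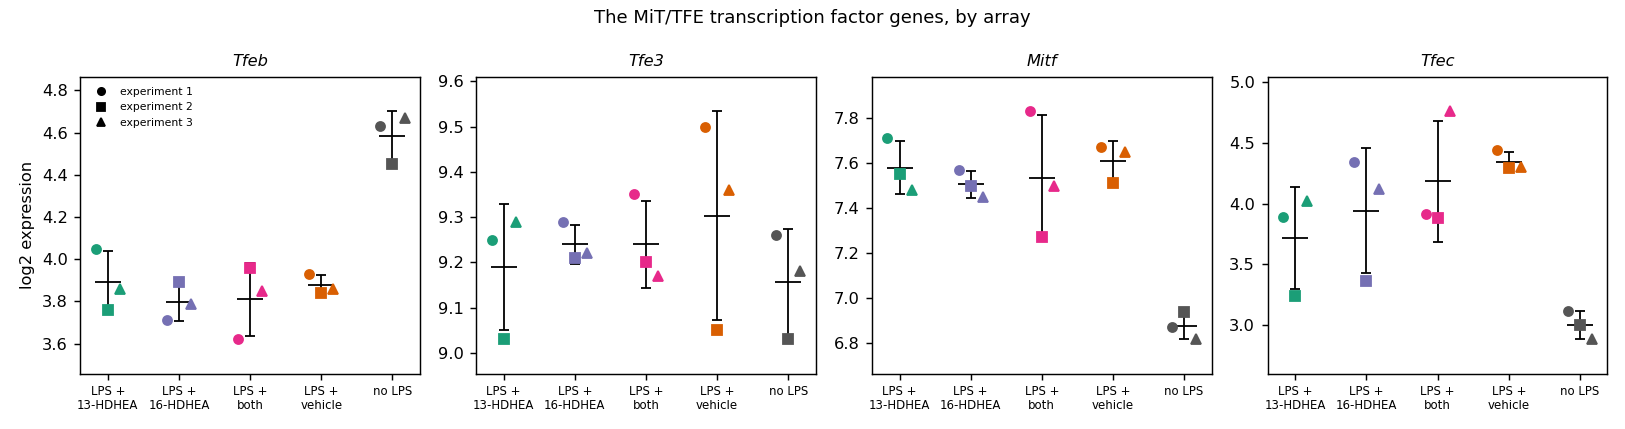
Log2 expression of the 4 TFEB-family genes on each array (vertical axes, 1 scale per gene) in the 5 groups; markers are experiments, bars the mean and SD of 3 arrays. Tfeb is lower and Mitf and Tfec are higher in LPS with vehicle than without LPS, while the Tfe3 groups overlap.

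Promoters of the list were read for the E-box core of this element and for 2 longer forms around that core, since the text above turns on a factor that binds the element. RefSeq's promoter windows, which run from 250 bases before to 50 after a gene's start, were at hand for 30 of the 39 genes (build GRCm38.p6). The E-box core CACGTG, which reads the same on both strands, stood in 13 of the 30 (43.3%), against 8.09% of all 27025 genes with a window. The longer form TCACGTGA, also the same on both strands and always holding the core, stood in 7 of the 30 (23.3%), against 1.12% of all genes. With a G before that form and a C after it, the string stood in 0 of the 30, against 0.37% of all genes. A match is a string of letters, not a shown binding site.

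The 7 genes with the 8-letter form follow with 12 bases on either side of the core, whose letters are in capitals, read 5′ to 3′ on the gene's strand. They cover a carboxypeptidase, an aspartic protease, a glycosidase, a channel and 3 pump subunits.
Ctsa: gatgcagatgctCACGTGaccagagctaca
Ctsd: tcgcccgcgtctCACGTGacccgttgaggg
Gla: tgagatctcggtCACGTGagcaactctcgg
Mcoln1: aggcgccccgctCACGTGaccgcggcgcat
Atp6v0d1: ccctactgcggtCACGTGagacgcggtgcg
Atp6v0e: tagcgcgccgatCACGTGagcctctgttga
Atp6v1a: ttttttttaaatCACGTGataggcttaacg
These windows are chr2:164833766-164833795 (plus strand) for Ctsa, chr7:142387908-142387937 (minus) for Ctsd, chrX:134601182-134601211 (minus) for Gla and chr8:3500462-3500491 (plus) for Mcoln1. Those of the pump genes are chr8:105566050-105566079 (minus) for Atp6v0d1, chr17:26676387-26676416 (plus) for Atp6v0e and chr16:44139373-44139402 (minus) for Atp6v1a. In the printed windows the first base of the core lay at 6 after the start in Ctsa and 4 after it in Atp6v0e. In the other printed windows it lay before the start, at -98 in Ctsd, -194 in Gla, -45 in Mcoln1, -3 in Atp6v0d1 and -131 in Atp6v1a. Ctsa and Gla each held the 8-letter form 2 times, with the other copy at -12 in Ctsa and -227 in Gla. Ctsa, Ctsd, Gla, Mcoln1 and Atp6v0b held the core 2 times, and Lamp1 held it 4 times without the 8-letter form.

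Genes with the core moved in either direction with LPS, or did not pass. Of 12 tested genes with it, 3 rose, 1 fell and 8 did not pass. Of 16 tested genes whose windows lacked it, 6 rose, 5 fell and 5 did not pass. Over all genes tested, 29.8% passed (13.5% higher, 16.3% lower). These counts are small, and whether the core bears on a gene's change was not tested. The windows of 3 of the 4 called genes with the core are given whole, because 2 of these genes rose and 1 fell, with the core in capitals. The window of Gaa, which rose, is chr11:119267713-119268012 on the plus strand. That of Atp6v0d1, which also rose but missed in 1 alternative, is chr8:105566015-105566314 on the minus strand. That of Atp6v1a, which fell, is chr16:44139210-44139509 on the minus strand.
Gaa: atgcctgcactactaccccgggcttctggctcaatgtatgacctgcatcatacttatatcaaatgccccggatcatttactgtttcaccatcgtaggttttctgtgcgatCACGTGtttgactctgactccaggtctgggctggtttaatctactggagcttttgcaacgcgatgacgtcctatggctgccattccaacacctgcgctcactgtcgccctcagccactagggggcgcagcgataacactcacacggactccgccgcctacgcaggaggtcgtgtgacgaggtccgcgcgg
Atp6v0d1: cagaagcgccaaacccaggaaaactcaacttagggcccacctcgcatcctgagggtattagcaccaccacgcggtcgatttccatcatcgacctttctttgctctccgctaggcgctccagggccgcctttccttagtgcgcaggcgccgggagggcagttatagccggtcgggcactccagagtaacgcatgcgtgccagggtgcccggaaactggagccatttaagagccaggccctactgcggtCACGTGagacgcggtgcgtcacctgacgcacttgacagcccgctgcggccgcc
Atp6v1a: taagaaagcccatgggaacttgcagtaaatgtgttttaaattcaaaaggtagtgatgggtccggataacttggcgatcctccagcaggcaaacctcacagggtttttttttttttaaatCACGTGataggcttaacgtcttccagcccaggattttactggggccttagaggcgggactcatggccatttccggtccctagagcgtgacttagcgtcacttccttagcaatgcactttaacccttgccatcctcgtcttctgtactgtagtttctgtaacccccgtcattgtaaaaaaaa
The fourth called gene with the core, Ctsl, held it at -236 without either flanking letter of the longer form.

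Among the hydrolases of lipids and sugars, 2 of 9 rose, 4 fell and 3 did not pass. The called share of these few genes was 66.7%, against 29.8% of all genes. Lipa, the acid lipase that frees cholesterol and fatty acids from lipoprotein lipids, read 11.45, 11.47 and 11.42 with LPS and vehicle, and 12.07, 12.13 and 12.13 without LPS. All LPS arrays lay below all arrays without LPS, by -0.61, -0.67 and -0.71 in experiments 1 to 3. Lipa fell by 0.66 on the log2 scale, which is 1.58-fold lower (95% interval -0.82 to -0.50, adjusted p = 1.02e-05 in limma). Gaa, the acid alpha-glucosidase that digests glycogen, went the other way. It read 8.82, 8.78 and 8.90 with LPS and 8.14, 8.04 and 8.37 without, with no overlap. Gaa was 1.57-fold higher (log2 difference 0.65, 95% interval 0.47 to 0.83, adjusted p = 3.03e-05). The change of Gaa exceeded that of Lipa by 1.29, 1.41 and 1.23 in the 3 experiments, a pair chosen after its values were seen.

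The other called hydrolase genes changed by less. Smpd1, acid sphingomyelinase, rose by 0.32 to 8.37 ± 0.035 with LPS, against 8.06 ± 0.117 without (SD, n = 3 each, adjusted p = 0.0108 in limma), and its second probe set differed by 0.37. With the no-LPS array of experiment 3 left out, Smpd1 missed the threshold (adjusted p = 0.054). Gusb, the beta-glucuronidase that trims glycosaminoglycans, fell by 0.35 to 10.77 ± 0.0284, against 11.12 ± 0.0852 (adjusted p = 0.00261). Hexa, the alpha chain of beta-hexosaminidase, fell by 0.31 (adjusted p = 0.0307), and Psap, the precursor of the saposins that present lipids to hydrolases, fell by 0.26 (adjusted p = 0.015).

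The Hexa and Psap calls depended on the scaling, the fit and single arrays. With arrays centred on their median the adjusted p was 0.0863 for Hexa and 0.0884 for Psap, and it was 0.0559 and 0.0678 in the same order when the fit held no other groups. Leaving out the LPS with vehicle array of experiment 2 gave an adjusted p of 0.124 for Hexa and 0.0673 for Psap. Hexa also missed when the no-LPS array of experiment 1 or 3 was left out (0.0528 and 0.116). 3 hydrolase genes did not pass: Asah1, acid ceramidase, at -0.16, Gla, alpha-galactosidase A, at -0.15, and Naglu, which acts on heparan sulphate, at 0.00.

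Of the 7 cathepsins and related peptidases, 3 rose, none fell and 4 did not pass. The called share of these few genes was 42.9%, against 29.8% of all genes. Ctsl, a cysteine endopeptidase, read 11.22, 11.26 and 10.82 with LPS and 10.58, 10.60 and 10.49 without. The groups did not overlap, though the replicate 3 array with LPS stood nearer to those without. Ctsl was 1.45-fold higher (log2 difference 0.54, 95% interval 0.27 to 0.80, adjusted p = 0.00389 in limma). Ctsc, which activates serine proteases of immune granules, rose by 0.36 to 10.97 ± 0.0425 with LPS, against 10.62 ± 0.0587 (SD, n = 3 each, adjusted p = 0.00147). Ctsz, a carboxypeptidase, rose by 0.25 to 12.60 ± 0.018, against 12.36 ± 0.00865 (adjusted p = 0.0103). Ctsz missed with quantile normalization repeated (0.17, adjusted p = 0.168) and when the fit held no other groups (adjusted p = 0.0529).

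The remaining cathepsins and related peptidases did not pass. Ctsd, the aspartic protease, read 12.64, 12.59 and 12.58 with LPS and 12.62, 12.60 and 12.68 without. Its groups overlapped, and the interval of the difference, -0.17 to 0.11, holds 0. Ctsb, a cysteine protease, differed by -0.10 (95% interval -0.24 to 0.05). Ctsh, an aminopeptidase, stood at 0.33 with an adjusted p of 0.12, and Ctsa, the carboxypeptidase that also shields beta-galactosidase and sialidase, at -0.17 with an adjusted p of 0.0605. In the fit that blocked on experiment, Ctsa passed (adjusted p = 0.0346). It also passed with limma's trended robust prior (0.00526), the 60th percentile filter (0.0275) and quantile normalization repeated (0.00829).

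The 2 Niemann-Pick type C genes, whose proteins hand cholesterol out of the lysosome one after the other, differed in direction, though the call of Npc1 was lost in most alternatives. Npc2, the soluble carrier in the lumen, read 11.55, 11.33 and 11.33 with LPS and 10.85, 10.88 and 10.87 without. Every LPS array lay above every array without LPS, and Npc2 was 1.45-fold higher (log2 difference 0.54, 95% interval 0.31 to 0.76, adjusted p = 0.00129 in limma). Npc1, the membrane transporter that receives the cholesterol, fell by 0.27 to 8.88 ± 0.0217 with LPS, against 9.14 ± 0.11 without (SD, n = 3 each, adjusted p = 0.0458). Npc1 did not pass in 9 of 14 alternatives. These were no filter (adjusted p = 0.0742), arrays centred on their median (0.0851), only the groups compared (0.0706), its probe sets averaged (-0.21, 0.168) and 5 omissions of an array. It did not pass without any 1 of the vehicle arrays or without replicate 1 or 2 of the group that had no LPS (adjusted p from 0.0655 to 0.176). The change of Npc2 exceeded that of Npc1 by 0.95, 0.82 and 0.64 in the 3 experiments, a pair again chosen after its values were seen.

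The remaining membrane genes changed little. Lamp2, a heavily glycosylated coat protein that also serves chaperone-mediated autophagy, rose by 0.19 to 10.94 ± 0.0505, against 10.74 ± 0.0555 (SD, n = 3 each, adjusted p = 0.0359 in limma). That call did not pass without replicate 1 or 2 of the vehicle group or replicate 1 or 3 of the group without LPS, with adjusted p from 0.0911 to 0.112. Lamp2 also missed with quantile normalization repeated (0.13, adjusted p = 0.146), no filter (0.0741) and only the groups compared (0.139). Its partner Lamp1 read 11.13, 11.00 and 11.20 with LPS and 11.20, 11.16 and 11.44 without. The Lamp1 groups overlapped, and the difference of -0.16 did not pass (adjusted p = 0.218). Mcoln1, the calcium channel of the lysosomal membrane, read 8.42, 8.45 and 8.54 with LPS and 8.38, 8.30 and 8.40 without. Its difference of 0.11 did not pass either (95% interval -0.07 to 0.29, adjusted p = 0.397). The probe set of Cd63, a tetraspanin of late endosomes, lay below the 40th percentile on all 15 arrays, between 2.58 and 3.11, and was not tested.

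The subunit genes of the V-ATPase did not move as a block. Of 13 tested, 3 rose, 2 fell and 8 did not pass. The called share was 38.5%, against 29.8% of all genes, so the count alone is no result about the pump. Atp6v1e1, the E subunit of the stalks that hold V1 to V0, read 10.49, 10.53 and 10.51 with LPS and 9.94, 9.88 and 9.88 without. With no overlap, it was 1.53-fold higher (log2 difference 0.61, 95% interval 0.43 to 0.79, adjusted p = 5.63e-05 in limma). Atp6v1h, the regulatory H subunit, rose by 0.45 to 8.77 ± 0.0498, against 8.33 ± 0.145 (SD, n = 3 each, adjusted p = 0.000598). Atp6v0d1, which joins the central stalk to V0, rose by 0.26 to 10.61 ± 0.0364, against 10.35 ± 0.0767 (adjusted p = 0.00955). When the fit held no other groups, Atp6v0d1 missed the threshold (adjusted p = 0.06).

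The genes of the ATP-binding head fell. Atp6v1a, the catalytic A subunit, fell by 0.29 to 10.52 ± 0.0252 with LPS, against 10.81 ± 0.039 without (SD, n = 3 each, adjusted p = 0.00402 in limma). Atp6v1b2, the B subunit that alternates with A in the head, fell by 0.30 to 10.92 ± 0.0266, against 11.22 ± 0.02 (adjusted p = 0.00269). A second, dimmer probe set of Atp6v1b2 differed by -0.15. The change of Atp6v1e1 exceeded that of Atp6v1a by 0.80, 0.91 and 0.98 in the 3 experiments, a pair chosen after its values were seen. A scaling shared by all genes of an array cancels in such a difference.

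The other V1 genes did not pass: Atp6v1c1 stood at -0.21, Atp6v1d at 0.20 and Atp6v1g1 at 0.07, the last with 2 further probe sets at 0.15 and 0.11. Atp6v1c1 passed in 4 alternatives: limma's trended robust prior (adjusted p = 0.0209), the 60th percentile filter (0.0372), quantile normalization repeated (0.032) and the no-LPS array of experiment 3 left out (0.0479). In V0, Atp6v0a1, an isoform of the large membrane subunit, stood at -0.21, the proteolipid gene Atp6v0b at 0.16 and Atp6v0e at -0.02. The accessory genes Atp6ap1 and Atp6ap2 stood at -0.05 and -0.01. The adjusted p of these 8 genes ran from 0.0669 to 0.936. Atp6v0d2, the isoform of the d subunit known from osteoclasts, lay below the 40th percentile on all 15 arrays, between 1.84 and 2.57, and was not tested.

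**Figure D3:**
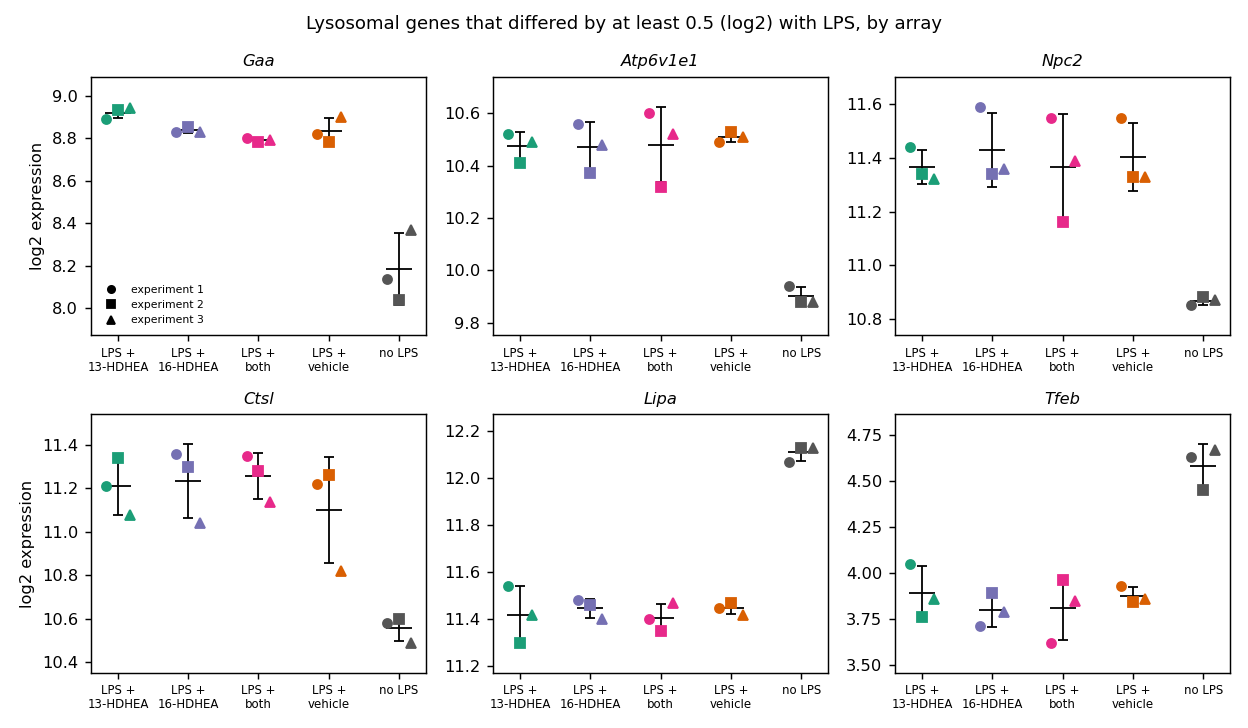
Log2 expression on each array (vertical axes, 1 scale per gene) of the 6 called lysosomal genes whose difference with LPS was at least 0.5 in size; markers are experiments, bars the mean and SD of 3 arrays. In each panel the 3 arrays without LPS lie apart from the 12 with LPS, below them for Gaa, Atp6v1e1, Npc2 and Ctsl and above them for Lipa and Tfeb.

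Other genes of the pathway are given beside the 29.8% of all genes that passed. Their lists were drawn up by function, with earlier results of these data known. The called share was 56.7% of the other hydrolase genes, 55.6% of the membrane and transporter genes and 43.8% of the V-ATPase subunit and assembly genes. Of 30 other lysosomal hydrolase genes tested, 5 rose and 12 fell, with a median difference of -0.03. Arsb, a sulphatase of dermatan sulphate, stood at -1.39 and Galc, the galactosylceramidase, at -1.20. The exonuclease gene Pld3 stood at 0.74 and the asparaginyl protease gene Lgmn at -0.89. The adjusted p of these 4 ran from 6.35e-09 to 4.62e-06 in limma. The falls of Arsb and Galc were 2-fold or more, a size that none of the 36 genes reached.

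Of 27 other membrane protein and transporter genes, 10 rose and 5 fell, with a median of 0.05. Mcoln2, a relative of Mcoln1, rose by 1.19, to 9.46 with LPS against 8.27 without, while the channel gene Tpcn1 fell by 1.22. The metal transporter gene Slc11a1, which acts in host defence, rose by 0.65 and the chloride-proton exchanger gene Clcn7 by 0.92. Their adjusted p ran up to 3.83e-06 in limma. Of 16 other V-ATPase subunit and assembly genes, 3 rose and 4 fell. The assembly factor genes Tmem199 and Dmxl2 rose by 0.74 and 0.96, while Rogdi and Ccdc115 fell by 0.53 and 0.46. Tcirg1, the a3 isoform of the large V0 subunit, stood at 0.26 and did not pass (adjusted p = 0.0632).

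Of the genes that regulate or surround the lysosome, the called share was 42.9% for the TFEB family and mTORC1 list, 32.0% for autophagy, 23.1% for mannose 6-phosphate sorting, 35.3% for late endosomes and lysosome positioning and 37.5% for cathepsin inhibitors. The shares for autophagy, sorting, late endosomes and the 8 cathepsin inhibitors lie near the 29.8% of all genes, so their counts are no result about those lists. Of 21 genes of the TFEB family and its mTORC1 control, 3 rose and 6 fell. Those that fell include Gpnmb, a glycoprotein gene that MITF activates, at -0.94 and the mTORC1 scaffold gene Rptor at -0.62. Of 25 autophagy genes, 5 rose and 3 fell, with the cargo receptor gene Sqstm1 at 0.76, Wipi2 at 0.66, Ulk2 at -0.49 and Atg9a at 0.37. Of 13 genes of mannose 6-phosphate sorting, which delivers hydrolases to lysosomes, 3 fell and none rose: Gnptab, the enzyme that starts the tag, by 0.59, and the adaptor genes Gga2 and Gga3 by 0.44 and 0.47. Of 17 genes of late endosome fusion and lysosome positioning, 2 rose and 4 fell, with Unc13d at 1.18, Rab27a at -1.22, Plekhm1 at -0.84 and Stx7 at -0.47. Of 8 cathepsin inhibitor genes, 2 rose and 1 fell: the higher ones were Cstb by 0.52 and Stfa3 at least 20.4-fold, while Cst3 fell by 0.42. Stfa3 belongs to a cluster of near-identical copies, and its level with LPS had an SD of 1.54.

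The second question was whether HDHEAs changed these genes in cells that also received LPS. 13-HDHEA and 16-HDHEA are positional isomers, which carry their hydroxyl group on different carbons of the docosahexaenoyl chain. None of the 36 genes passed with 13-HDHEA, 16-HDHEA or both together against vehicle in limma. None had an unadjusted p under 0.05 in any of these comparisons. Of all 15468 genes, 0.00646% passed with 13-HDHEA and 0% with 16-HDHEA or both, and 4.27%, 2.97% and 3.48% had an unadjusted p under 0.05. The 3 comparisons share the vehicle arrays.

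The data also bound how large such a change could be. With 13-HDHEA the differences of the 36 genes ran from -0.20 to 0.11, with a median of -0.03 against -0.01 over all genes. With 16-HDHEA they ran from -0.21 to 0.14, and with both together from -0.19 to 0.16. All 36 intervals lay between -0.5 and 0.5 in each comparison, their outermost bounds being -0.48 and 0.43. For the mean of the 3 HDHEA groups against vehicle, 0 of 36 passed, none had an unadjusted p under 0.05, and the intervals lay between -0.42 and 0.35. In that comparison 0% of all genes passed.

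**Figure D4:**
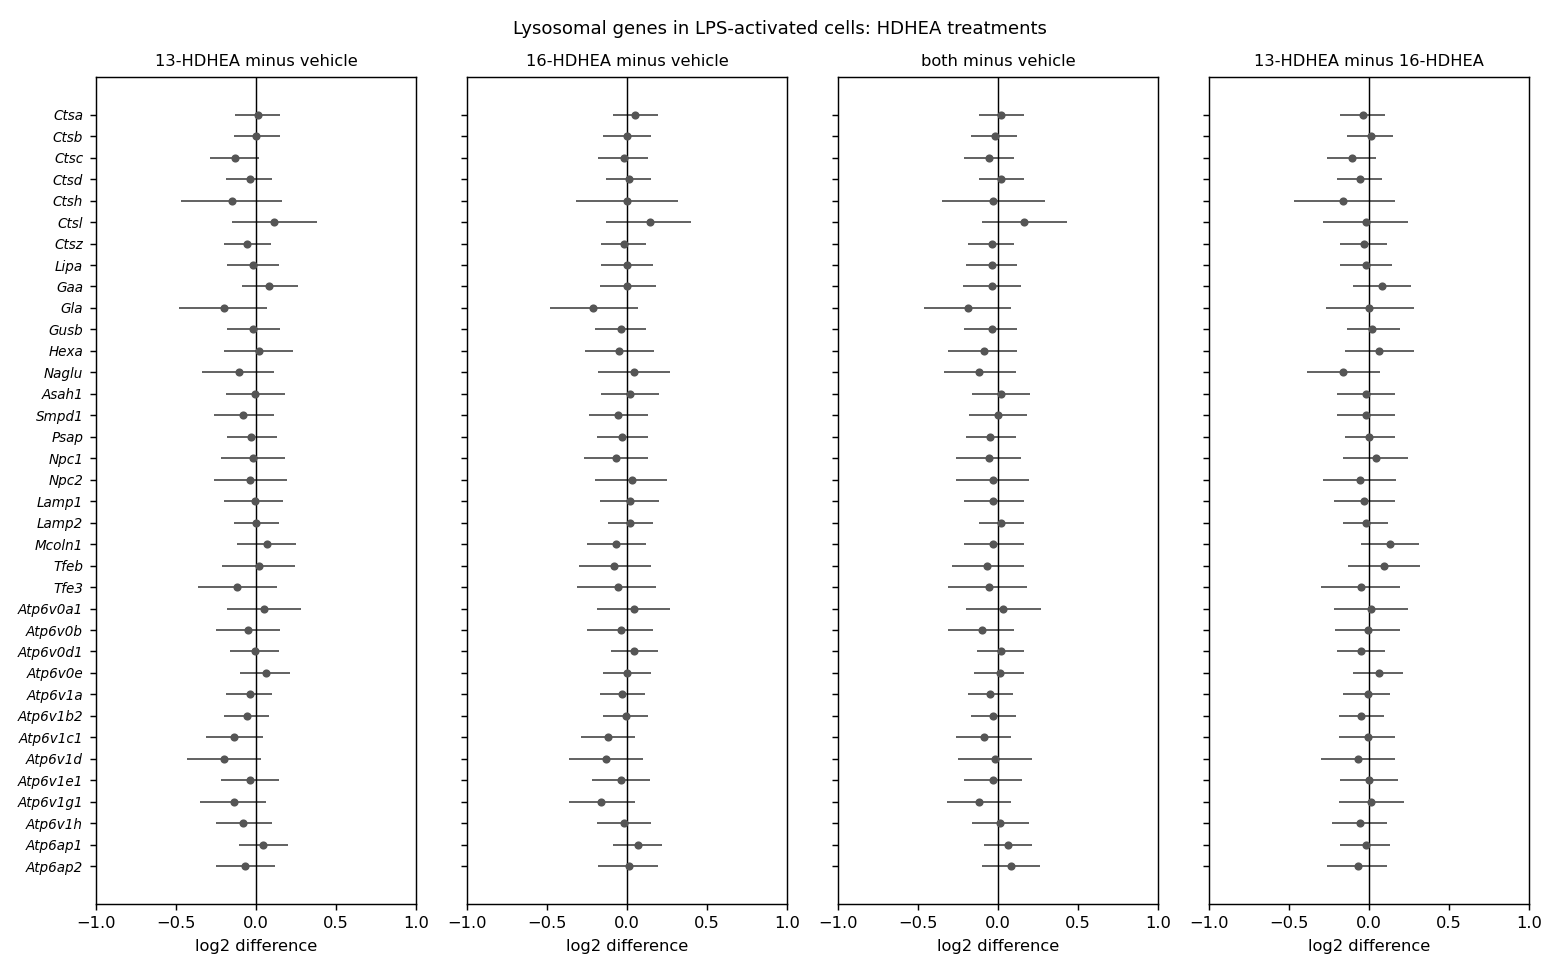
Log2 differences of the 36 tested lysosomal genes in LPS-activated cells for 3 HDHEA treatments against vehicle and for 13-HDHEA against 16-HDHEA (horizontal axes); points are limma estimates and bars 95% intervals. All 36 intervals lie between -0.5 and 0.5 in each panel.

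The genes with the smallest p show the size of what was seen. With 13-HDHEA they were Atp6v1d, at -0.20 (95% interval -0.43 to 0.03), Ctsc, at -0.13 (-0.29 to 0.02), and Atp6v1c1, at -0.14 (-0.31 to 0.04). With 16-HDHEA they were Atp6v1g1, at -0.16 (95% interval -0.36 to 0.05), Gla, at -0.21 (-0.48 to 0.07), and Atp6v1c1, at -0.12 (-0.29 to 0.05). With both compounds they were Gla, at -0.19 (-0.46 to 0.08), Ctsl, at 0.16 (-0.10 to 0.43), and Atp6v1g1, at -0.12 (-0.32 to 0.08). For the mean of the 3 groups they were Gla (-0.20), Atp6v1g1 (-0.14) and Atp6v1c1 (-0.11), and each of these values had an adjusted p of 1. Single vehicle arrays moved several of these values by over 1.5 times. Ctsl with both compounds stood at 0.02 without the vehicle array of experiment 3. Gla stood at -0.08 with 16-HDHEA, -0.06 with both and -0.07 in the mean without the vehicle array of experiment 2, and at -0.34, -0.32 and -0.33 without that of experiment 3. Atp6v1g1 stood at -0.09, -0.05 and -0.07 without the vehicle array of experiment 2, and at -0.25, -0.21 and -0.23 without that of experiment 3, in the same order. The Gla difference with 16-HDHEA was -0.25, -0.43 and 0.05 in experiments 1 to 3, and -0.23, -0.39 and 0.05 with both compounds. Its sign was thus not shared by the experiments. The other genes named for each treatment against vehicle kept their sign in all 3 experiments, though none passed. Ctsc with 13-HDHEA, for example, stood at -0.19, -0.11 and -0.10, and Atp6v1g1 with 16-HDHEA at -0.12, -0.29 and -0.06.

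The genes that LPS changed most stood near the vehicle level in all 3 HDHEA groups. Lipa averaged 11.42 with 13-HDHEA, 11.45 with 16-HDHEA and 11.41 with both, and 11.45 with vehicle. Tfeb averaged 3.89, 3.80 and 3.81 in the same order of HDHEA groups, and 3.87 with vehicle. Gaa averaged 8.92, 8.84 and 8.79 in the HDHEA groups and 8.83 with vehicle. The Atp6v1e1 means were 10.47, 10.47 and 10.48 in the HDHEA groups and 10.51 with vehicle. For these 4 genes every interval of a difference from vehicle lay between -0.30 and 0.26.

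Other genes given by array followed the same description over the 9 HDHEA arrays. Npc2 had its lowest, median and highest values at 11.16, 11.36 and 11.59 over the HDHEA arrays, against 11.33 to 11.55 with vehicle. Ctsl ran over 11.04, 11.28 and 11.36 with HDHEAs, against 10.82 to 11.26 with vehicle. The HDHEA and vehicle arrays overlapped for both of these genes. Tfe3 ran over 9.03, 9.22 and 9.35 with HDHEAs, against 9.05 to 9.50 with vehicle. For Mcoln1 the 3 values were 8.31, 8.45 and 8.62, against 8.42 to 8.54 with vehicle. These groups overlapped too, as they did for Lamp1 (11.02, 11.11 and 11.18 with HDHEAs, 11.00 to 11.20 with vehicle) and Ctsd (12.52, 12.61 and 12.67 with HDHEAs, 12.58 to 12.64 with vehicle).

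By role, all 7 V1 genes lay below vehicle with 13-HDHEA (median -0.08) and with 16-HDHEA (median -0.04). With both compounds 6 of 7 lay below it (median -0.03), the vehicle arrays being shared. None of the 7 passed, and genes read on the same arrays are not repeats of a treatment. Of the 4 V0 genes, 2 lay above vehicle with 13-HDHEA and 3 each with 16-HDHEA and with both compounds. Of the 2 accessory genes, 1 lay above vehicle with 13-HDHEA and 2 each with 16-HDHEA and with both. Over all genes 8311 of 15468 lay below vehicle with 13-HDHEA, 7775 with 16-HDHEA and 7962 with both. The 7 cathepsin genes had medians of -0.04, 0.00 and -0.02 in the same order of treatments, and the 9 lipid and sugar hydrolase genes -0.02, -0.03 and -0.04.

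The isomers were compared directly at 5.0 µM, the only matched dose, which makes 1 pair of compounds. None of the 36 genes passed or had an unadjusted p under 0.05 in limma, while 0.00646% of all genes passed and 3.10% had an unadjusted p under 0.05. The differences, 13-HDHEA minus 16-HDHEA, ran from -0.16 to 0.13, and all 36 intervals lay between -0.47 and 0.32. Mcoln1 stood at 0.13 (95% interval -0.05 to 0.31), Ctsc at -0.11 (-0.26 to 0.04) and Naglu at -0.16 (-0.39 to 0.07), the 3 genes with the smallest p, each with an adjusted p of 1. A miss at this threshold does not show that the isomers act alike, and the intervals bound the difference.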

How the data were processed

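RNA of 15 RAW264.7 samples was measured on Affymetrix arrays. The authors deposited log2 values per probe set, made with RMA per the submitters' processing notes. The RMA version is not given in the sources used here. Since RMA equalizes the arrays' distributions, it hides any change common to most genes. Of 41345 probe sets, 23521 had 1 symbol in the platform's gene table, covering 22180 genes. A gene was tested where it exceeded the array's 40th percentile (3.16 to 3.22) on at least 3 arrays, which left 15468.

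Group means were fitted over all 15 arrays with limma 3.58.1 in R 4.3.3 (lmFit, eBayes; 10 residual and 3.59 prior degrees of freedom). Tests were two-sided and intervals are 95%; the Benjamini-Hochberg adjustment ran over the 15468 genes. The method was tested on simulated data. A set change of 0.5 was recovered in 49 of 100 genes for the LPS comparison and in 43 of 100 for 13-HDHEA. A set change of 1 was recovered in 93 and 94 of 100, in the same order. Changes of 0.5 or less could thus be missed in a gene drawn from all those tested. The listed genes had a smaller median within-group SD, 0.0841 against 0.159 over all genes. The simulation also changed far fewer genes than the 4616 called with LPS. Recovery for the list itself was not tested. For Tfec and Stfa3, dim without LPS, the fold is a lower bound taken from the 40th percentile.

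Experiment numbers in the labels pair the arrays. Same-numbered arrays deviated together, with correlations of 0.0835 to 0.404 in 30 pairs, 28 of them above 0.1. Alternatives were a block on experiment, other filters and scalings, and leaving out single arrays. All samples come from 1 cell line.

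The genes and lists were chosen with earlier results of these data known. Values on every array are given for genes called with LPS at 0.5 or more in size and for Tfeb, Tfe3, Mcoln1, Lamp1 and Ctsd. Each HDHEA comparison names its 3 genes with the smallest p. Other lists name up to 4 genes with the smallest p in the LPS comparison, and Tcirg1 as a subunit paralog. Pairs of genes set against each other, Pdgfra, Cdh5, Vwf and the macrophage markers given with values were chosen after their values were seen. Promoters are from RefSeq (GRCm38.p6), with 9 of the 39 genes not in the table used here.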

Additional observations from a re-analysis of the deposited data

How the results depend on the processing

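Of the 18 calls with LPS, 11 held in all 14 alternatives, and none of the 18 genes changed sign in any of these. The count of 18 ranged from 12 to 20. The count of 8 genes that fell was 5 when only the groups compared were fitted, 5 with arrays centred on their median, and 5 to 8 leaving out 1 array, lowest without the LPS with vehicle array of experiment 2. With experiment as a replicate block 19 genes passed, 10 higher and 9 lower, Ctsa being added. The median gene differed by -0.0587 between LPS with vehicle and no LPS as deposited; centring removes this offset and so raises each difference by that amount. Calls were lost in at least 1 alternative for Npc1, Lamp2, Hexa, Psap, Ctsz, Smpd1 and Atp6v0d1, and gained in 4 each for Ctsa and Atp6v1c1. Only genes that did not pass changed sign. With centring Ctsd stood at 0.03, Atp6v0e at 0.04, Atp6ap1 at 0.0094 and Atp6ap2 at 0.05, and with quantile normalization repeated Naglu stood at -0.0025. Leaving out 1 array gave -0.10 to 0.07 for Naglu, -0.06 to 0.0014 for Atp6v0e, -0.08 to 0.0037 for Atp6ap1 and -0.08 to 0.06 for Atp6ap2. With all probe sets averaged, Atp6v1g1 stood at 0.0011 with both HDHEAs against vehicle. Over all genes, the 1 call with 13-HDHEA was 0 when only the groups compared were fitted, and 2 without the LPS with vehicle array of experiment 1. The 1 call between the isomers was 0 in that fit and 0 without experiment 2 or 3 of either isomer. The cause of these changes was not tested.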
